A study of Mus musculus with 6 samples.

Results

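The genes described here are 32 genes of cholesterol and fatty acid synthesis, taken by name as a pathway list from a table of 16516 genes measured by RNA sequencing in CD11b+ cells from the mouse cortex. All 32 genes were in the table and all 32 were among the 13151 genes that entered the test. Lipopolysaccharide samples (4LPS) came from wild-type male C57BL6/J mice aged 8 to 10 weeks that received 500 µg/kg of LPS intraperitoneally once per day, with 4 injections in all. Normal saline samples (NS) came from mice of that strain, sex and age that received saline on the same schedule. Cells were collected at day 7 (D7) after the first injection with anti-CD11b magnetic beads (magnetic-activated cell sorting, MACS), which retain microglia together with any other cell that carries CD11b. Each RNA sample pooled 2 mice, and there were 3 samples in each group, so a sample here is a pool and not a single animal.

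Cholesterol is built from acetyl-CoA through mevalonate, the prenyl diphosphates and squalene, and fatty acids are built from the same acetyl-CoA by carboxylation, chain growth and desaturation. Transcription of most enzymes of both routes is driven by the SREBP factors, which stay in the endoplasmic reticulum with their escort Scap and the Insig retention proteins while sterol is plentiful, and reach the nucleus after cleavage in the Golgi when sterol is scarce. In the adult brain, cholesterol is made locally, above all by glia, and microglia also take up and export sterol from myelin and cell debris.

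Total expected counts were 15164123 to 15462396 in 4LPS samples and 15158342 to 15746606 in NS samples, and the lowest count of any of the 32 genes in any sample was 28 (Elovl6 in 4LPS sample 2). The 10 microglial markers examined were all detected and summed to 45737 to 46323 CPM (counts scaled to library size with edgeR's composition factors) in 4LPS samples and 46771 to 49341 CPM in NS samples, with Csf1r, the receptor for colony-stimulating factor, the most abundant. Of these 10, 1 was lower in 4LPS samples, P2ry12, named after its value was seen (log2 fold change -0.53, edgeR adjusted p = 0.00688). Over all tested genes, 6.43% were called lower and 9.95% higher. Without overlap between the groups, 7 of the 10 were lower in 4LPS samples and 2, Csf1r and Fcrls, were higher. The shares without overlap among all tested genes were 17.5% lower and 19.9% higher. Markers of other brain cells were also present. Choroid plexus markers, 7 of 7 detected and led by Ttr, summed to 2218, 1.97 and 532 CPM in 4LPS samples 1 to 3 and to 6582, 5717 and 654 CPM in NS samples 1 to 3, and 0 of the 7 passed the test in either direction. Astrocyte markers summed to 220 to 250 CPM in 4LPS samples and 302 to 327 CPM in NS samples, with 6 of 10 lower in 4LPS and Slc1a3 the most abundant. Endothelial markers, led by Slc2a1, summed to 291 to 520 CPM in 4LPS samples and 524 to 900 CPM in NS samples, with 3 of 10 lower. Markers of NK and T cells, led by Gzma, summed to 94.1 to 109 CPM in 4LPS samples and 8.24 to 12.7 CPM in NS samples. All 8 tested were higher, but Cd3e, Cd3d and Cd3g of this list were too low to be tested. Cd8a (counts of 1, 0 and 1) and Ncr1 (6, 4 and 9) were near the floor in NS samples. Such genes entered the test through the 4LPS group, where they were high, so the filter partly set this count. Neutrophil markers, led by S100a9, summed to 409 to 975 CPM in 4LPS samples and 158 to 623 CPM in NS samples, and 0 of 7 passed. Pericyte and smooth muscle markers, led by Rgs5, summed to 137 to 304 CPM in 4LPS samples and 217 to 467 CPM in NS samples. Sums of the border-associated macrophage (led by Mrc1), monocyte (Fn1) and B cell (Cd79b) lists were 1.09, 1.007 and 1.28 times those in NS samples, with 1, 0 and 0 markers passing. Neuron (Stmn2) and oligodendrocyte precursor (Cspg4) markers summed to at most 11.96 and 19.3 CPM in 4LPS samples and 15.5 and 33.1 CPM in NS samples. In these bulk samples, fewer cells of a type and less RNA per cell cannot be told apart.

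Promoter sequences are described first, although they were searched after the expression test. SREBP factors bind a short sterol regulatory element (SRE) near the start site of many of these genes and act there together with NF-Y and Sp1. RefSeq windows from 250 bases before to 50 bases after the start site (build GRCm38.p6) were matched to 25 of the 32 genes. Windows were not matched for Scd1, Scd2, Fads1, Fdft1, Fdps, Sqle and Stard4. The windows of Fads2 (chr19:10101454-10101753, minus strand) and Sc5d (chr9:42264251-42264550, minus strand) are printed because these 2 genes were lower in 4LPS samples. Those of Hmgcs1 (chr13:119690101-119690400, plus strand) and Srebf2 (chr15:82147019-82147318, plus strand) are printed because they hold a match to the SRE. All 4 sequences run 5′ to 3′ on the strand of the gene, and capitals mark the SRE, E-box, NF-Y box and GC box on either strand.
Fads2: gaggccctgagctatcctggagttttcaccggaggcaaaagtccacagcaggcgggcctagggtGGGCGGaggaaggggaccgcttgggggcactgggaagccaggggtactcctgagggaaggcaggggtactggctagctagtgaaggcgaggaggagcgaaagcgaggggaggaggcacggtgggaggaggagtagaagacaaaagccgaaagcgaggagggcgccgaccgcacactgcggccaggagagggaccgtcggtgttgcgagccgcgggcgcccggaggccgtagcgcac
Sc5d: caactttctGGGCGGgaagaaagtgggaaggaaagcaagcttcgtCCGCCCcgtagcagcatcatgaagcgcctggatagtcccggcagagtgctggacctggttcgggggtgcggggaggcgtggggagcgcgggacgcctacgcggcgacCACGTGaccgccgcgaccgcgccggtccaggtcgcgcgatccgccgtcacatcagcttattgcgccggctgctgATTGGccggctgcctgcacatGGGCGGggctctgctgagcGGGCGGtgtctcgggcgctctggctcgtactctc
Hmgcs1: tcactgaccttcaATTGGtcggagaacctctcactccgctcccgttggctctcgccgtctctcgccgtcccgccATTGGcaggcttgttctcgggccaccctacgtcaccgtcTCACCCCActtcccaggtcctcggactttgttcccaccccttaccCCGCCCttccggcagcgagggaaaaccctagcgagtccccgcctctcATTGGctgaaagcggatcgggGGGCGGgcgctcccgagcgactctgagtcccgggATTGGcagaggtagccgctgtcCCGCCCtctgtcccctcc
Srebf2: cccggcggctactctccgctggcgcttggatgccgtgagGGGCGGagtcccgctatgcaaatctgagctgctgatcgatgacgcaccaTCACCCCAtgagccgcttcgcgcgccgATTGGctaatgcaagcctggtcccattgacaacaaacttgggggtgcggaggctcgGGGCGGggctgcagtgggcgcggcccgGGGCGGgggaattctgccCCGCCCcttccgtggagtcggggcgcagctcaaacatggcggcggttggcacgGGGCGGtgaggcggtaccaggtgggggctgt
The SRE was searched as TCACNCCA, the E-box as CACGTG, the NF-Y box as CCAAT and the GC box as GGGCGG, each on both strands, and 0 pairs of matches to different motifs overlapped. Hmgcs1 and Srebf2 carried TCACCCCA, starting at position -137 and position -162 from their start sites. Msmo1 held the only other match to the SRE among the 25 genes. The SRE was thus found in 3 of the 25 genes (12%), against 4.97% of 27025 genes with a window of this length and 4.54% of those that also entered the expression test. E-boxes were found in 5 of the 25 genes (20.0%; 8.09% of all genes with a window and 11.5% of the 10567 genes that also entered the expression test), among them Sc5d, where the match starts at position -98. NF-Y boxes were found in 20 of the 25 genes (80.0%; 41.1% of all and 42.9% of tested genes), with 4 in Hmgcs1 and in Nsdhl and 5 in Mvk. GC boxes were found in 20 of the 25 genes (80.0%), against 38.2% of all genes and 67.4% of tested genes. The Fads2 window held a single GC box, at position -186, and none of the other motifs. These matches describe letters in a window and were not tested as binding sites.

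Levels were first compared between genes per length, as FPKM, which corrects for transcript length and library size. Desaturases stood at the top of the pathway in both groups. In 4LPS samples, Fads1, a desaturase of polyunsaturated fatty acid synthesis, had the highest level at 58.7, 53.2 and 52.6 FPKM, followed by Scd2, the main brain form of stearoyl-CoA desaturase, at 39.3, 35.4 and 39.2 FPKM. In NS samples the order was the other way round, with Scd2 at 73.0, 66.7 and 68.4 FPKM and Fads1 at 70.4, 62.5 and 56.8 FPKM. The Scd2 and Fads1 levels did not overlap in 4LPS samples, whereas they overlapped in NS samples. Ebp, the sterol isomerase, came next in every sample, at 31.6, 33.7 and 33.1 FPKM in 4LPS samples and 34.1, 31.9 and 36.1 FPKM in NS samples. Scap followed on average, at 23.5 ± 1.68 FPKM in 4LPS samples and 25.4 ± 2.09 FPKM in NS samples (SD, n = 3 each).

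At the other end of the scale were Hsd17b7, a sterol ketoreductase, with 0.987 ± 0.189 FPKM in 4LPS samples and 1.11 ± 0.035 FPKM in NS samples, and Elovl6, the elongase of saturated chains, with 0.510 ± 0.185 FPKM in 4LPS samples and 1.25 ± 0.542 FPKM in NS samples (SD, n = 3 each). Replicate spread differed between the genes. In CPM, the coefficient of variation of Lss, lanosterol synthase, was 2.31% in 4LPS samples and 2.70% in NS samples, whereas that of Scd1 was 61.8% in 4LPS samples and 48.6% in NS samples. Fads2, Sqle and Elovl6 also varied by more than 20% in both groups.

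**Figure D1:**
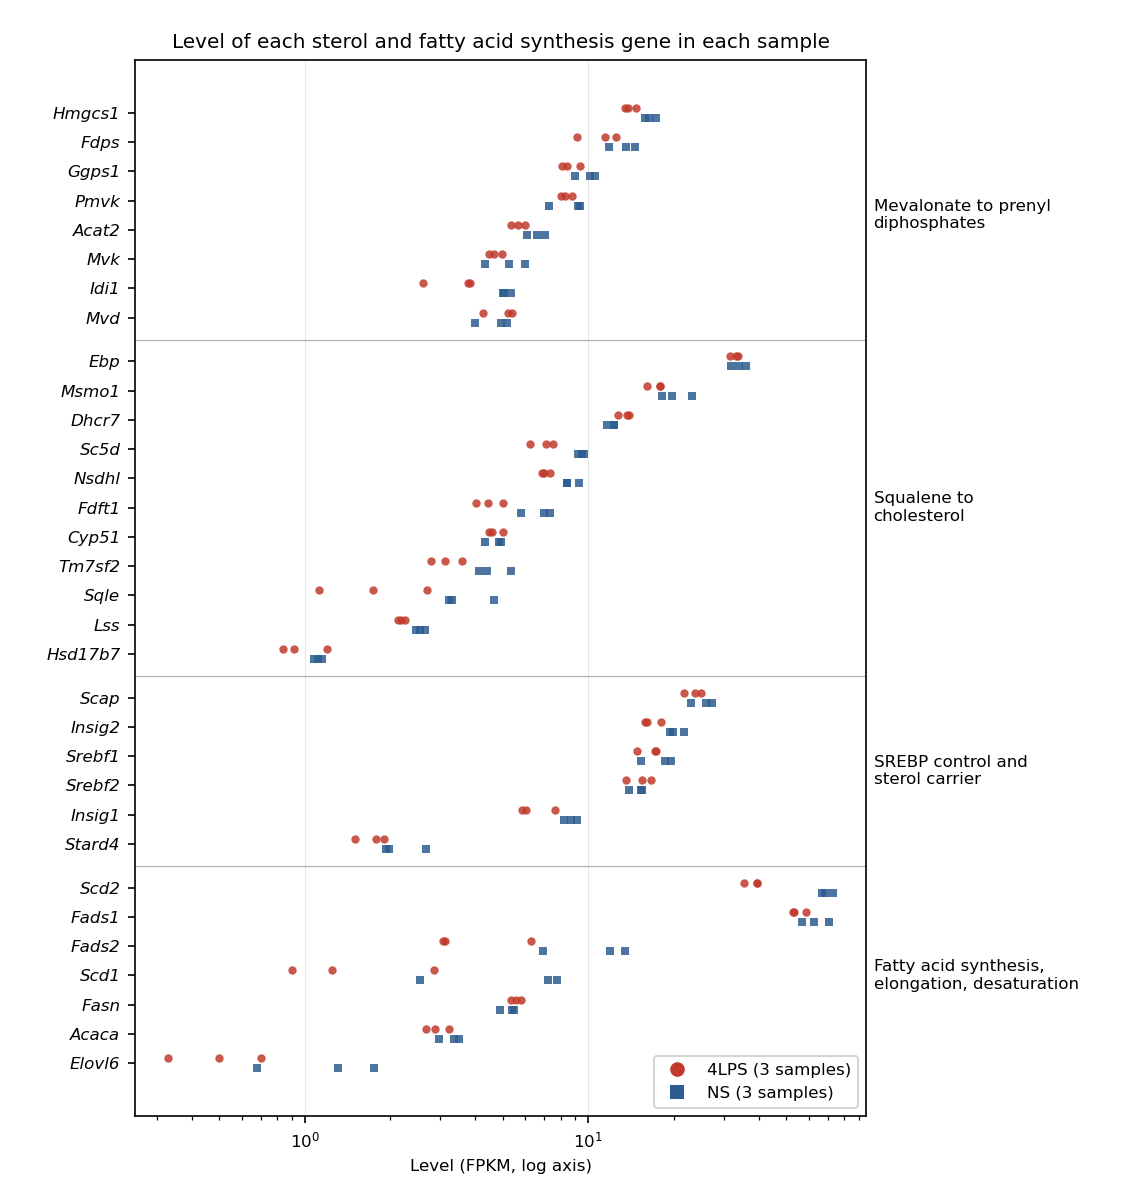
Level of each of the 32 genes in each sample, in FPKM on a log axis, grouped by role; circles are the 3 4LPS samples and squares the 3 NS samples. Scd2 sits between 35.4 and 39.3 FPKM in 4LPS samples and between 66.7 and 73.0 FPKM in NS samples, while Hsd17b7 and Elovl6 sit lowest, and FPKM values carry no composition factor.

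The comparison asked which of these genes differed between CD11b+ cells of 4LPS mice and NS mice at D7. Of the 32 genes, 4 were lower in 4LPS samples, namely Scd2, Fads2, Fdft1 and Sc5d, 0 were higher, and 28 did not pass (edgeR quasi-likelihood test, Benjamini-Hochberg adjusted p under 0.05 over all 13151 genes). The 4 lower genes were 12.5% of the list, beside 6.43% of all tested genes called lower, and none of the 32 was higher, beside 9.95% of all tested genes called higher. At an unadjusted p under 0.05, 13 of the 32 genes were lower and 2 were higher, beside 16.1% of all tested genes lower and 17.6% higher. DESeq2 called 5 of the 32 lower (Scd2, Fads2, Fdft1, Sqle and Elovl6, but not Sc5d), beside 6.73% of all genes, and 0 higher, beside 10.2%. With limma-voom, the same 4 genes as with edgeR were lower, beside 5.93% of all genes, and 1 was higher (Dhcr7), beside 9.95%. The median log2 fold change over the 32 genes was -0.13, beside -0.02 over all tested genes. Fitted changes were below 0 for 25 of the 32 genes (78.1%, beside 52.7% of all tested genes) and above 0 for 7, although 3 of these 7 (Pmvk, Cyp51 and Ebp) were below 0 when no composition factor was applied. Groups did not overlap for 12 genes that were lower in every 4LPS sample (37.5%, beside 17.5% of all tested genes) and for 2 genes, Dhcr7 and Fasn, that were higher in every 4LPS sample (6.25%, beside 19.9%).

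Summed over the 32 genes, the level was 1173, 1070 and 1134 CPM in 4LPS samples and 1424, 1354 and 1273 CPM in NS samples. Scd2 made up much of this gap. Without Scd2, the sum was 965, 881 and 922 CPM in 4LPS samples and 1064, 1019 and 929 CPM in NS samples, and the groups overlapped.

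**Figure D2:**
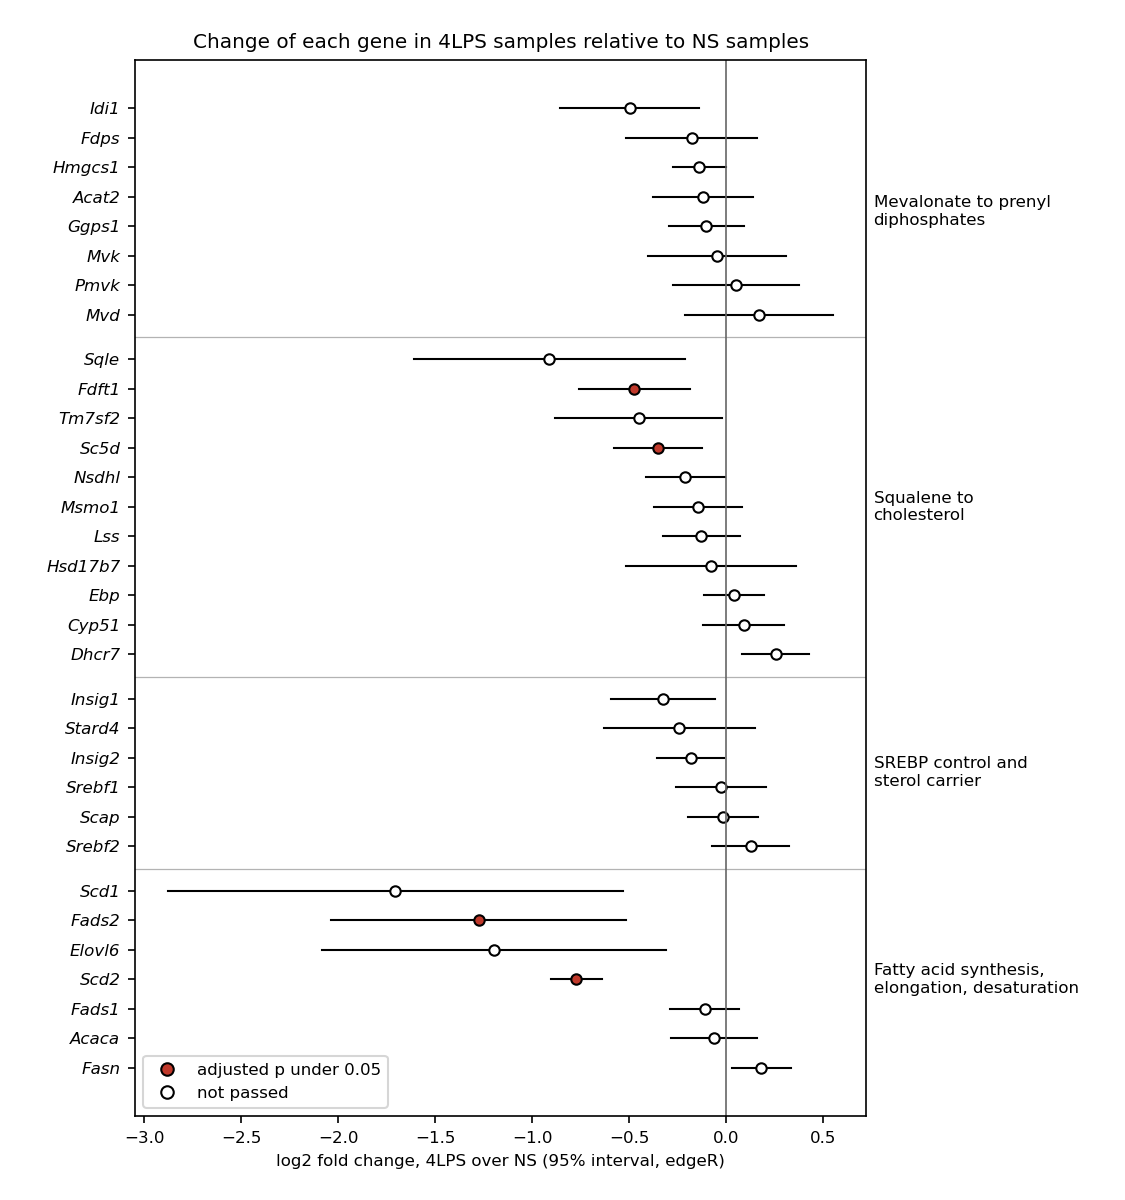
Log2 fold change of each gene in 4LPS samples over NS samples, with the 95% interval from edgeR; filled points passed at an adjusted p under 0.05. The 4 filled points are Scd2, Fads2, Fdft1 and Sc5d, and the widest intervals belong to Scd1, Elovl6, Fads2 and Sqle.

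Among the 7 genes of fatty acid synthesis, elongation and desaturation, 2 (28.6%) were lower in 4LPS samples (Scd2 and Fads2), 0 were higher and 5 did not pass. The shares among all tested genes were 6.43% lower and 9.95% higher. The median log2 fold change of the 7 genes was -0.77. Scd2, which introduces the double bond of oleate, had 208, 189 and 212 CPM in 4LPS samples and 360.1, 335 and 344 CPM in NS samples. Every 4LPS sample was lower than every NS sample, with replicates close together in both groups. The level was 1.71-fold lower in 4LPS samples (log2 fold change -0.77 ± 0.06 (SE, n = 3 each), 95% interval -0.90 to -0.64, edgeR adjusted p = 1.29e-04), and Scd2 had the smallest p of the 32 genes, rank 100 among all 13151. Scd2 lies at chr19:44281613-44295303 (GRCm39, plus strand).

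Fads2, the desaturase of the first step towards long polyunsaturated fatty acids, had 16.9, 8.50 and 8.41 CPM in 4LPS samples and 33.9, 30.4 and 17.7 CPM in NS samples. Groups did not overlap, but NS sample 3 lay next to 4LPS sample 1. The fitted level was 2.42-fold lower in 4LPS samples (log2 fold change -1.28 ± 0.33 (SE, n = 3 each), edgeR adjusted p = 0.0359). Fads2 lies at chr19:10038130-10079203 (GRCm39, minus strand). Fads1, which acts after Fads2 in the same route, had 191, 175 and 174 CPM in 4LPS samples and 214, 193 and 176 CPM in NS samples. Its groups overlapped, and its change did not pass (log2 fold change -0.11 ± 0.08, adjusted p = 0.344).

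Scd1, the other stearoyl-CoA desaturase of the list, had the most negative fitted change of the 32 genes but did not pass. It had 13.4, 4.21 and 5.97 CPM in 4LPS samples and 33.7, 31.9 and 11.3 CPM in NS samples, so that NS sample 3 lay below 4LPS sample 1 (log2 fold change -1.70 ± 0.51, adjusted p = 0.0562). In FPKM, Scd1 made up 6.79%, 2.48% and 3.09% of the summed Scd1 and Scd2 level in 4LPS samples and 9.59%, 9.74% and 3.58% in NS samples. Elovl6 had 4.05, 1.90 and 2.98 CPM in 4LPS samples and 9.50, 7.23 and 3.78 CPM in NS samples, with the same 2 samples overlapping (log2 fold change -1.20 ± 0.38, adjusted p = 0.0700).

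At the entry of fatty acid synthesis, neither gene passed. Fasn, fatty acid synthase, had 57.5, 53.1 and 56.3 CPM in 4LPS samples and 49.7, 51.6 and 46.0 CPM in NS samples. It was higher in each 4LPS sample than in any NS sample but did not pass (log2 fold change 0.18 ± 0.07, adjusted p = 0.0972). Acaca, acetyl-CoA carboxylase, averaged 26.5 ± 2.31 CPM in 4LPS samples and 27.7 ± 2.22 CPM in NS samples (SD, n = 3 each; log2 fold change -0.06, edgeR adjusted p = 0.682). Whether the change of Scd2 or Fads2 differed from that of Fasn or Acaca was not tested.

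Of the 11 genes from squalene to cholesterol, 2 (18.2%) were lower in 4LPS samples (Fdft1 and Sc5d), 0 were higher and 9 did not pass. The shares among all tested genes were 6.43% lower and 9.95% higher. The median log2 fold change of the 11 genes was -0.15. Fdft1, squalene synthase, which commits prenyl diphosphates to sterols, had 13.8, 11.3 and 12.5 CPM in 4LPS samples and 18.9, 18.2 and 15.1 CPM in NS samples. Every 4LPS sample was lower than every NS sample, by 1.39-fold in the fit (log2 fold change -0.47 ± 0.12 (SE, n = 3 each), edgeR adjusted p = 0.0386). Fdft1 lies at chr14:63382189-63417027 (GRCm39, minus strand).

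Sc5d, the sterol desaturase near the end of the route, had 15.1, 12.6 and 14.5 CPM in 4LPS samples and 17.8, 18.5 and 17.7 CPM in NS samples. Its groups did not overlap, and NS samples were close together. The fitted level was 1.28-fold lower in 4LPS samples (log2 fold change -0.35 ± 0.10 (SE, n = 3 each), edgeR adjusted p = 0.0467). Its call was the least firm of the 4, since Sc5d did not pass with DESeq2 (adjusted p = 0.105), without a filter on low counts (adjusted p = 0.0606) or in any fit that left out a sample. Sc5d lies at chr9:42162891-42175605 (GRCm39, minus strand), and its promoter window printed above carries an E-box, an NF-Y box and 4 GC boxes.

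Sqle, squalene epoxidase, a rate-controlling step after Fdft1, had 6.81, 2.85 and 4.47 CPM in 4LPS samples and 11.0, 7.92 and 7.75 CPM in NS samples. Its groups did not overlap, but the spread in 4LPS samples was wide and the change did not pass (log2 fold change -0.91 ± 0.30, adjusted p = 0.0775). Dhcr7, the reductase that yields cholesterol at the last step, was the reverse of Sqle in direction, with 34.3, 32.6 and 34.6 CPM in 4LPS samples and 29.5, 29.2 and 26.3 CPM in NS samples. No 4LPS sample of Dhcr7 overlapped an NS sample, and it did not pass (log2 fold change 0.26 ± 0.07, adjusted p = 0.0531).

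Ebp averaged 49.5 ± 1.96 CPM in 4LPS samples and 48.1 ± 2.87 CPM in NS samples (SD, n = 3 each). Its samples were 47.3, 51.0 and 50.1 CPM in 4LPS and 47.6, 45.5 and 51.2 CPM in NS, the groups overlapped, and the log2 fold change was 0.04 (adjusted p = 0.704). Tm7sf2, a sterol reductase, averaged 3.90 CPM in 4LPS samples and 5.34 CPM in NS samples (log2 fold change -0.45, adjusted p = 0.134), and Nsdhl, a sterol dehydrogenase of demethylation, averaged 14.1 CPM in 4LPS samples and 16.3 CPM in NS samples (log2 fold change -0.21, adjusted p = 0.142). Both were lower in every 4LPS sample without passing. Lss was also lower in every 4LPS sample, at 13.7 CPM on average in 4LPS samples and 14.98 CPM in NS samples (log2 fold change -0.13, adjusted p = 0.327).

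The remaining 3 genes of the squalene branch overlapped between groups. Msmo1, the sterol methyl oxidase, averaged 28.0 CPM in 4LPS samples and 30.9 CPM in NS samples (log2 fold change -0.15, adjusted p = 0.335). Cyp51, the lanosterol demethylase, averaged 19.7 CPM in 4LPS samples and 18.5 CPM in NS samples (log2 fold change 0.09, adjusted p = 0.512). Hsd17b7 averaged 4.38 CPM in 4LPS samples and 4.63 CPM in NS samples (log2 fold change -0.08, adjusted p = 0.800).

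None of the 8 genes from acetyl-CoA through mevalonate to prenyl diphosphates passed in either direction, 2 were lower at an unadjusted p under 0.05 (16.1% of all tested genes were), and DESeq2 and limma-voom called 0, whereas limma on log2(FPKM + 1) called Idi1 and Hmgcs1 lower, beside 13% of all genes it tested. Their median log2 fold change was -0.11, and their summed level was 145.3, 145.2 and 140.5 CPM in 4LPS samples and 159.9, 154 and 157 CPM in NS samples, without overlap. Idi1, the isomerase of isopentenyl diphosphate, had the most negative fitted change of the branch at 9.07 ± 1.79 CPM in 4LPS samples and 12.8 ± 0.505 CPM in NS samples (SD, n = 3 each; log2 fold change -0.50 ± 0.15, adjusted p = 0.0645). Hmgcs1, which condenses acetyl-CoA with acetoacetyl-CoA and whose window above holds an SRE, averaged 47.3 ± 1.83 CPM in 4LPS samples and 52.0 ± 1.86 CPM in NS samples (log2 fold change -0.14 ± 0.06, adjusted p = 0.145). Both Idi1 and Hmgcs1 were lower in every 4LPS sample than in any NS sample.

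The other 6 genes of the mevalonate branch overlapped between groups. Acat2, a thiolase, averaged 10.5 CPM in 4LPS samples and 11.4 CPM in NS samples (log2 fold change -0.12, adjusted p = 0.481). Mvk and Pmvk, the kinases of mevalonate and phosphomevalonate, lay close to 0: Mvk averaged 6.91 CPM in 4LPS samples and 7.14 CPM in NS samples (log2 fold change -0.05, adjusted p = 0.856), and Pmvk 7.79 CPM in 4LPS samples and 7.53 CPM in NS samples (log2 fold change 0.05, adjusted p = 0.837). Mvd, the decarboxylase of this route, averaged 7.57 CPM in 4LPS samples and 6.72 CPM in NS samples (log2 fold change 0.17, adjusted p = 0.498). Fdps, farnesyl diphosphate synthase, averaged 11.0 CPM in 4LPS samples and 12.5 CPM in NS samples (log2 fold change -0.18, adjusted p = 0.424). Ggps1, geranylgeranyl diphosphate synthase, averaged 43.5 CPM in 4LPS samples and 46.7 CPM in NS samples (log2 fold change -0.10, adjusted p = 0.415).

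Transcripts of the SREBP factors and their escort did not pass the test. Srebf1, which mainly drives fatty acid genes, had 71.0, 62.0 and 72.9 CPM in 4LPS samples and 75.7, 73.6 and 60.3 CPM in NS samples (log2 fold change -0.03, 95% interval -0.26 to 0.21, adjusted p = 0.881). Srebf2, which mainly drives sterol genes, had 67.8, 60.0 and 74.5 CPM in 4LPS samples and 63.5, 63.8 and 58.1 CPM in NS samples (log2 fold change 0.13, 95% interval -0.07 to 0.32, adjusted p = 0.335). Scap had 100.8, 88.3 and 97.8 CPM in 4LPS samples and 97.4, 104 and 88.4 CPM in NS samples (log2 fold change -0.02, 95% interval -0.20 to 0.16, adjusted p = 0.906). For each of these 3 genes the groups overlapped, although 2 of the 3 4LPS samples of Srebf2 lay above every NS sample, and transcript levels do not report cleavage of the SREBP proteins.

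Insig1, itself an SREBP target, had 18.5, 14.8 and 14.4 CPM in 4LPS samples and 20.7, 18.9 and 20.1 CPM in NS samples (log2 fold change -0.32 ± 0.12, adjusted p = 0.0956). Insig2 had 38.0, 43.8 and 38.7 CPM in 4LPS samples and 48.1, 44.5 and 44.3 CPM in NS samples (log2 fold change -0.18 ± 0.07, adjusted p = 0.132). Both retention factors were lower in each 4LPS sample than in any NS sample, and neither passed. Stard4, a cytosolic sterol carrier, averaged 9.03 CPM in 4LPS samples and 10.7 CPM in NS samples with overlap (log2 fold change -0.24, adjusted p = 0.349). As a role, the 6 genes of SREBP control and sterol transport had a median log2 fold change of -0.10, and none passed with edgeR, DESeq2 or limma-voom. Insig1 and Insig2 were lower at an unadjusted p under 0.05, beside 16.1% of all tested genes. Both were also lower with limma on log2(FPKM + 1), beside 13% of all genes it tested. That scale has no composition factor, and its median log2 fold change over all genes was -0.0817.

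Several of these genes followed the choroid plexus signal across samples. The order of the samples within both groups was the same as that of the summed choroid plexus markers for Sqle, Fdft1, Scd1 and Elovl6, which were 4 of the 32 genes (12.5%, beside 6.04% of all tested genes). Fads2 followed this order within the NS group, with NS sample 3 lowest at 17.7 CPM. It did not follow it within the 4LPS group, at 8.50 CPM in sample 2 and 8.41 CPM in sample 3. How many of all tested genes followed the order in the NS group alone was not counted. With the log2 sum of the choroid plexus markers as a covariate in edgeR, a fit chosen after seeing the data, Scd2 was the only gene of the 32 to pass, at -0.71 on the log2 scale (adjusted p = 7.91e-04), beside 3% of all tested genes called lower. In that fit, the log2 fold change was -0.85 for Fads2 (adjusted p = 0.124), -0.33 for Fdft1 (adjusted p = 0.166) and -0.25 for Sc5d (adjusted p = 0.196). For the other genes that followed the choroid plexus order, it was -0.94 for Scd1 (adjusted p = 0.180) and -0.63 for Elovl6 (adjusted p = 0.280). For Sqle it was -0.49 (adjusted p = 0.223). These genes were picked by their order along the same sum, so values nearer to 0 follow partly from that choice. The mean sum in 4LPS samples was 0.2125 of that in NS samples, so this fit cannot separate the covariate from the group. Scd2 had 360.1 and 335 CPM in NS samples 1 and 2, where the choroid plexus sum was 6582 and 5717 CPM, and 344 CPM in NS sample 3, where it was 654 CPM. In 4LPS samples 1 to 3, Scd2 had 208, 189 and 212 CPM, and the choroid plexus sum was 2218, 1.97 and 532 CPM. The part of choroid plexus RNA in the change of any of these genes was not tested. Marker sums of other brain cells were also lower on average in 4LPS samples, at 0.749 of NS samples for astrocytes, 0.554 for endothelium, 0.670 for pericytes and smooth muscle, 0.736 for neurons and 0.739 for oligodendrocyte precursors. The sum for neutrophils was 2.13 times that of NS samples. Most of the astrocyte sum was Slc1a3, at 161 to 177 CPM in 4LPS samples and 173 to 182 CPM in NS samples. Slc1a3 did not pass (log2 fold change -0.05, edgeR adjusted p = 0.480). The median log2 fold change of the 10 astrocyte markers was -0.87. The part of these other cells in the change of Scd2, Fads2, Fdft1 and Sc5d was not tested.

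**Figure D3:**
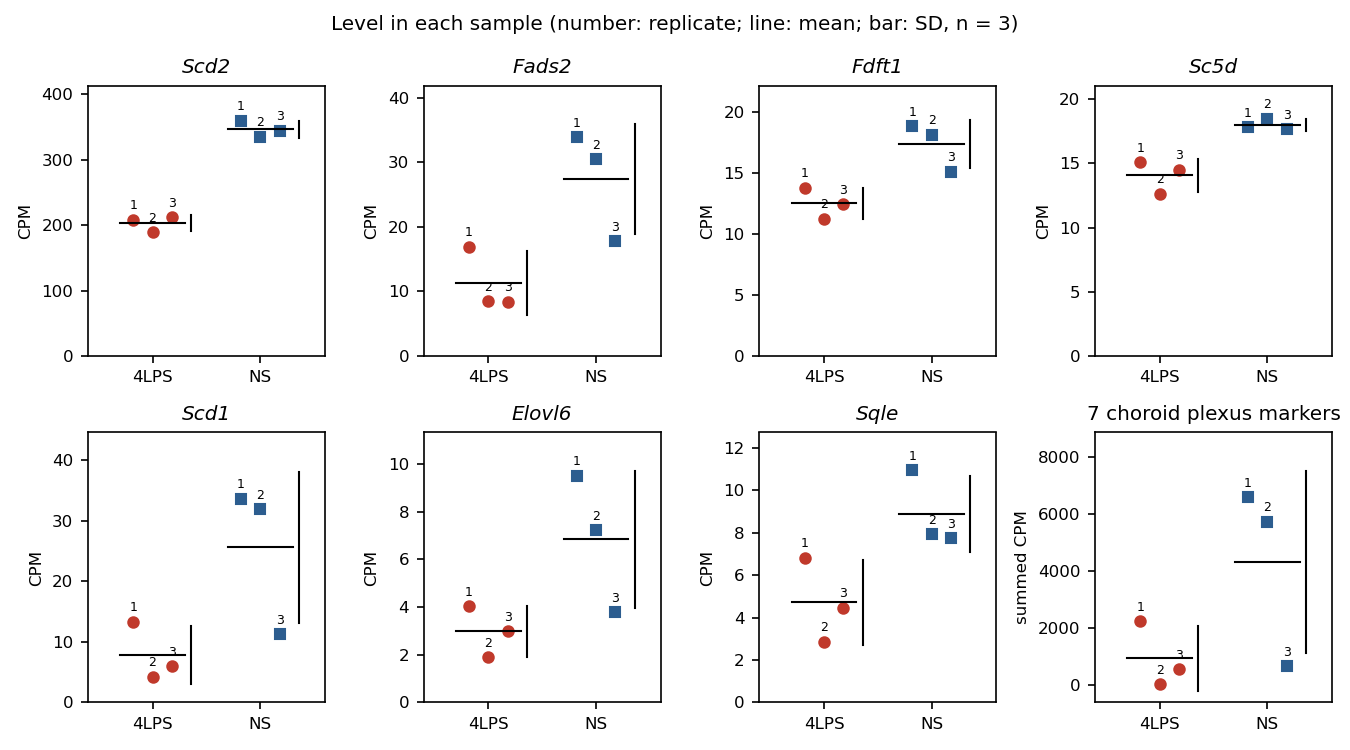
Level of 7 genes and the summed level of 7 choroid plexus markers in each sample, in CPM; numbers are replicates, lines are means and bars are SD (n = 3 each). Scd2 holds between 189 and 212 CPM in 4LPS samples and between 335 and 360.1 CPM in NS samples, whereas Scd1, Elovl6 and the choroid plexus sum are lower in NS sample 3 than in 4LPS sample 1.

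Scd2 passed in each of the 6 fits that left out a sample, while Fads2, Fdft1 and Sc5d lost their calls in some or all of them. Over all genes, these fits called 363 to 1215 genes lower, against 845 with all samples. Without 4LPS sample 2, 4LPS sample 3, NS sample 1 or NS sample 2, Scd2 was the only gene of the list to pass. In that order, these fits called 363 of 13392, 436 of 13407, 369 of 13266 and 551 of 13316 tested genes lower. Without 4LPS sample 1, 5 genes were lower (Scd2, Fads2, Sqle, Insig1 and Scd1), beside 557 of 13378 tested genes. Without NS sample 3, 5 were lower (Scd2, Fads2, Fdft1, Scd1 and Elovl6), beside 1215 of 13327 tested genes. Sc5d passed in 0 of these 6 fits, with log2 fold changes of -0.40 to -0.27. Fdft1 passed in 1 (-0.56 to -0.39) and Fads2 in 2 (-1.69 to -1.09).

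**Figure D4:**
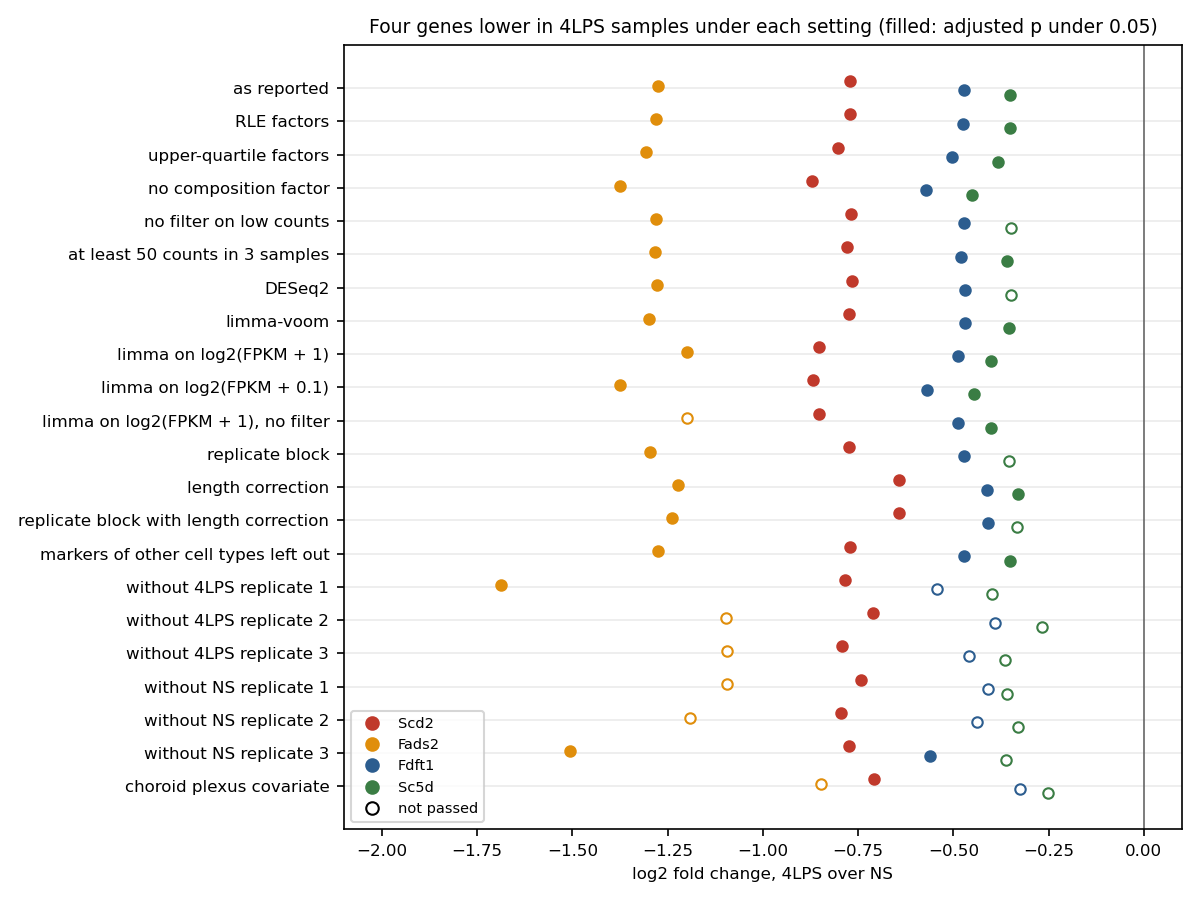
Log2 fold change of Scd2, Fads2, Fdft1 and Sc5d in 4LPS over NS samples under each way of fitting the data, with filled points where the adjusted p was under 0.05. Scd2 is filled in every row and stays between -0.87 and -0.64, whereas Sc5d is open in each row that leaves out a sample.

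The neighbouring genes of the pathways were described from lists of genes not among the 32. Of 32 tested genes for sterol uptake, storage, export, oxidation and SREBP processing, 4 (12.5%) were higher in 4LPS samples, 1 (3.12%) was lower and 27 did not pass. The shares among all tested genes were 9.95% higher and 6.43% lower. The median log2 fold change of this list was 0.05. Soat1, which esterifies cholesterol for storage, had 152, 168 and 171 CPM in 4LPS samples and 105.2, 99.3 and 107 CPM in NS samples (log2 fold change 0.66, adjusted p = 3.45e-04). Abca1, which exports cholesterol to lipoproteins, had 998, 1006 and 987 CPM in 4LPS samples and 771, 724 and 704 CPM in NS samples (log2 fold change 0.44, adjusted p = 0.00164). Npc2, which carries cholesterol out of lysosomes, was likewise higher at 734 ± 21.3 CPM in 4LPS samples and 555 ± 13.9 CPM in NS samples (SD, n = 3 each; log2 fold change 0.40, edgeR adjusted p = 0.00164). Ch25h, the hydroxylase that makes an oxysterol able to hold SREBP factors in the endoplasmic reticulum, had 2.90, 2.72 and 4.61 CPM in 4LPS samples and 0.692, 0.629 and 1.36 CPM in NS samples (log2 fold change 1.92, adjusted p = 0.0134). Its counts were 43, 40 and 68 in 4LPS samples and 11, 10 and 22 in NS samples, near the floor in NS. Ch25h entered the test through the 4LPS group, where it was high, so the filter partly set the count of 4 higher genes. Mylip, the ligase that targets lipoprotein receptors for degradation, was lower (log2 fold change -0.23, adjusted p = 0.0285).

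Of 33 tested genes for other steps of fatty acid supply, elongation and use, 2 (6.06%) were higher, 2 (6.06%) were lower and 29 did not pass. Among all tested genes, 9.95% were higher and 6.43% lower. At an unadjusted p under 0.05 in edgeR, 2 of the 33 were higher and 8 lower, beside 17.6% and 16.1% of all tested genes. The median log2 fold change of this list was -0.05. Hacd4, a dehydratase of the elongation cycle, was higher (log2 fold change 0.57, adjusted p = 0.00480), as was Lpin2, a phosphatidate phosphatase (log2 fold change 0.19, adjusted p = 0.0312). Acsl3, an acyl-CoA synthetase of lipid droplets, was lower at 12.1 ± 0.626 CPM in 4LPS samples and 18.3 ± 2.70 CPM in NS samples (SD, n = 3 each; log2 fold change -0.60, edgeR adjusted p = 0.0173). Mid1ip1, an activator of acetyl-CoA carboxylase, was also lower (log2 fold change -0.24, adjusted p = 0.0315). Of the 10 tested genes for use of prenyl diphosphates, 0 passed with edgeR, and 1 was higher and 1 lower at an unadjusted p under 0.05, beside 17.6% and 16.1% of all tested genes.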

How the data were processed

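CD11b+ cells of 3 4LPS and 3 NS cortex samples were sequenced as mRNA libraries on a DNBSEQ-G400 instrument. Per the study's methods and the submitters' processing notes, reads were mapped with HISAT2 2.0.4 and Bowtie2 2.2.5 and quantified with RSEM 1.2.8, and DESeq2 1.16.1 was used by the authors for testing. The methods name mouse build mm39, the notes list mm39 and mm10, and no source used here gives the annotation release. For each gene, the authors deposited RSEM expected counts, FPKM, TPM, and a signal column that divides the expected count by a size factor per sample. TPM and the size-factor signal were not used. The deposited FPKM values served for levels between genes and as an alternative test scale.

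Expected counts were rounded to whole numbers (2.77% were not whole) and tested with edgeR 4.0.16 (R 4.3.3): TMM factors, filterByExpr, the quasi-likelihood test of 4LPS against NS on all 6 samples, and Benjamini-Hochberg adjustment over 13151 genes. CPM used effective library sizes. TMM factors were 0.954 to 0.975 in 4LPS samples and 1.03 to 1.05 in NS samples. The 32 genes, the other lists and the marker lists were chosen with earlier results of these data known. All 32 genes are named; values per sample are given for those that passed, the SREBP factors, Scap, the Insig genes and the 3 genes of highest FPKM, with others added after their values were seen. From the other pathway lists, genes that passed are named. One marker list is not reported here. Alternatives used RLE, upper-quartile or no composition factors, DESeq2 1.42.0, no filter on low counts or a minimum of 50 in 3 samples, limma 3.58.1 (voom, or log2(FPKM + 1) and log2(FPKM + 0.1), with or without a minimum of 1 FPKM in 3 samples), a replicate block, a length correction, both together, markers left out, and each sample left out. The test was checked on simulated counts. Gene positions are from GENCODE vM39 (GRCm39), and promoter windows are from RefSeq (GRCm38.p6). No 2 libraries agreed within sampling noise. The p-values rest on 3 pools a group. They set the group difference against variation between pools, which edgeR estimates with information from all genes, and not against variation between single animals.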

Additional observations from a re-analysis of the deposited data

How the results depend on the processing

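Over 20 other ways of fitting the data, the 32 genes gave 638 fitted changes, of which 548 kept their direction and side of the threshold, 20 lost the call, 37 gained one and 33 changed sign, in 10 genes that never passed. The count of 4 lower genes became 9 with no composition factor, 11 with log2(FPKM + 1), 10 with log2(FPKM + 0.1), 7 with the replicate block, 1 with the choroid plexus covariate (added after seeing the data) and 1 to 5 without each replicate in turn. The count of higher genes was 1 with limma-voom (Dhcr7) and 2 with the length correction, with or without the replicate block (Dhcr7 and Fasn). The median log2 fold change was -0.23 with no composition factor, -0.20 with log2(FPKM + 1), -0.21 for the same without a filter, -0.22 with log2(FPKM + 0.1) and -0.0779 with the replicate block and length correction. Over all genes, 1308 higher and 845 lower became 906 and 1711 with no composition factor, 823 and 1486 with log2(FPKM + 1), 813 and 1454 with log2(FPKM + 0.1), 818 and 1335 for log2(FPKM + 1) without a filter, 1130 and 1016 with upper-quartile factors, 1275 and 1081 with the replicate block, 2148 and 775 with the length correction, 2374 and 1029 with the replicate block and length correction, and 820 and 394 with the covariate. Leaving out samples gave 781 to 1629 higher and 363 to 1215 lower. With no composition factor the median over all genes moved to -0.11.

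Signs changed to -0.0489 for Pmvk, -0.0074 for Cyp51 and -0.0569 for Ebp with no composition factor, to -0.0318, -0.0047 and -0.0497 with log2(FPKM + 1), filtered or not, and to -0.0343, -0.0056 and -0.0510 with log2(FPKM + 0.1). The length correction gave 0.0213 for Ggps1, 0.0278 for Lss, 0.0255 for Hsd17b7, 0.0732 for Srebf1, 0.0805 for Scap and 0.151 for Acaca, and with the replicate block 0.0191, 0.0268, 0.0137, 0.0789, 0.0845 and 0.152. The covariate gave 0.0437 for Mvk, 0.0223 for Hsd17b7, -0.0141 for Ebp, 0.108 for Srebf1 and 0.0850 for Scap. Without each replicate in turn, Mvk ranged from -0.154 to 0.0547, Pmvk from -0.0532 to 0.116, Hsd17b7 from -0.240 to 0.0330, Srebf1 from -0.119 to 0.0531, Scap from -0.0740 to 0.0495 and Acaca from -0.127 to 9e-04. The cause of these changes was not tested.

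Sc5d did not pass without a filter (adjusted p = 0.0606) or with DESeq2 (adjusted p = 0.105), and Fads2 did not pass with log2(FPKM + 1) without a filter (limma adjusted p = 0.0535). Replicate numbers did not pair the samples (correlations of deviations for numbers 1 to 3 were 0.47, -0.26 and 0.07). With the replicate block, Idi1, Sqle, Elovl6 and Scd1 also passed and Sc5d did not. Outside the 32 genes, Soat1, Npc2, Abca1 and Hacd4 passed in all 20 of these fits, while Lpin2 passed in 10, Mylip in 15, Mid1ip1 in 16, Acsl3 in 17 and Ch25h in 18 of 19. Depth limits Elovl6, Sqle, Hsd17b7 and Tm7sf2 most, with counts of 28 to 174 in single samples.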
